A study of Mus musculus with 4 samples.

Results

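The mitochondrial ribosomal protein genes are nuclear genes whose products, after import, build the ribosome inside the mitochondrion. They were taken here as every protein-coding RefSeq gene (mouse assembly GRCm38.p6, the mm10 build) whose symbol begins with Mrpl or Mrps followed by a digit, 78 of 21887 protein-coding genes. Trim33, a chromatin-associated ubiquitin ligase that reads histone tails and works with SMAD proteins, was mapped by chromatin immunoprecipitation and sequencing (ChIP-seq) in T helper 17 (Th17) cells. Naive CD4+ T cells from spleen and lymph nodes of C57BL/6 mice had been skewed in culture with IL-6 and TGF-b while IL-4 and IFN-g were blocked by antibodies, under stimulation through CD3 and CD28. There were 2 Trim33 ChIP libraries, made with a Bethyl antibody, and 2 input DNA libraries made without antibody; all came from these cells, with no second genotype or treatment, and the labels do not say whether the cultures were separate. The deposited data are 1 list of 27050 peaks from the merged Trim33 libraries, with 1 value per peak, so no value below has an error between libraries and none was tested. The identity of the cells cannot be checked against marker expression in a peak list, and the depth of the libraries is unknown.

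The mitochondrial ribosome has a large and a small subunit and translates the few messenger RNAs of the mitochondrial genome, all of which encode core subunits of oxidative phosphorylation. Many of its proteins belong to families shared with bacterial ribosomes, and others are found in mitochondria only. The genes for all of them lie in the nucleus. By known subunit membership, 51 of the 78 genes encode large-subunit proteins, including Mrps30 and Mrps18a despite their symbols, and 27 were counted with the small subunit. The small-subunit count includes Mrps36, whose product is now assigned to the 2-oxoglutarate dehydrogenase complex.

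Trim33 peaks were found at most of these genes, mostly close to the start. A summit (the highest point of a peak) within 1000 bp of either end of the gene was found for 57 of the 78 genes (73.1%), against 33.4% of all protein-coding genes. In the locus, taken as the body plus flanks of 10 kb, 67 of the 78 genes (85.9%) had a summit, against 53.9% of all protein-coding genes. The highest gene-end peaks were at Mrpl17, Mrpl23, Mrpl39 and Mrpl1, with a fold enrichment over background of 16.6, 13.7, 13.0 and 12.4. Fold enrichment is the authors' value for each peak. The median of the highest gene-end peak was 6.43-fold over the 57 genes (quartiles 5.53 and 8.71), against 6.07-fold over the 7306 protein-coding genes with such a peak (quartiles 4.87 and 7.83). The order of these medians turned with peaks at or above the median −log10 q, to 7.55-fold, against 7.70-fold.

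The promoters of 6 of the 8 genes with a gene-end peak of 10-fold or more are shown because the summit itself lies in the printed stretch; in Mrpl23 and Mrpl22 it lies elsewhere. Each line gives the 250 bases before the start that RefSeq lists (GRCm38.p6), on the strand of the gene. Capitals mark matches to 4 motifs of factors known to act at housekeeping promoters: ETS (CCGGAAG), NRF1 (GCGCNTGCG), YY1 (AAGATGGCG) and the cyclic AMP response element, CRE (TGACGTCA), each searched on both strands.
Mrpl17 (chr7:105811088-105811337, minus strand): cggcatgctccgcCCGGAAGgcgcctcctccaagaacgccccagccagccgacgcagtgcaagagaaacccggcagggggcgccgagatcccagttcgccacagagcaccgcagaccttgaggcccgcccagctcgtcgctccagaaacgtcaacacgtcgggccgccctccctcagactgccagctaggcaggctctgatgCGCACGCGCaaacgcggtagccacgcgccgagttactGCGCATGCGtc
Mrpl39 (chr16:84735245-84735494, minus strand): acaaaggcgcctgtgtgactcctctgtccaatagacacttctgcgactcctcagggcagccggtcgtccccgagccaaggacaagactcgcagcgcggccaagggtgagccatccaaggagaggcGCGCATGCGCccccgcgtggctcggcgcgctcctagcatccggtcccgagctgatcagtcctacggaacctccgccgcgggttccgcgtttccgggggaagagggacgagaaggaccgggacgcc
Mrpl1 (chr5:96209865-96210114, plus strand): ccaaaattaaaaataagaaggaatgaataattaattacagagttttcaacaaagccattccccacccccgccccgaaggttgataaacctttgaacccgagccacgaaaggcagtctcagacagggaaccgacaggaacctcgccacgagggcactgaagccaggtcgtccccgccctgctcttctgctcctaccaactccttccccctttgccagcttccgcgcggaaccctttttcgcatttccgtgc
Mrps18c (chr5:100798509-100798758, plus strand): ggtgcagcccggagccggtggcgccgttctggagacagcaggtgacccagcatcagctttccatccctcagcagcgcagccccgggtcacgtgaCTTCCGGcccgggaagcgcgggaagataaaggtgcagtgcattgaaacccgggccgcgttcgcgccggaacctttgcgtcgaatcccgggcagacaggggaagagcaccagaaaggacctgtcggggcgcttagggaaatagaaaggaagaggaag
Mrps27 (chr13:99344536-99344785, plus strand): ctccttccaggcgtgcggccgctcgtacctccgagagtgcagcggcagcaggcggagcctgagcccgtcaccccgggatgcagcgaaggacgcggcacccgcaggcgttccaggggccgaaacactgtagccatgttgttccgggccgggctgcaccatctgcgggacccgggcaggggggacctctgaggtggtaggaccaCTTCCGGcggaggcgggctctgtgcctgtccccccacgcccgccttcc
Mrpl16 (chr19:11770165-11770414, plus strand): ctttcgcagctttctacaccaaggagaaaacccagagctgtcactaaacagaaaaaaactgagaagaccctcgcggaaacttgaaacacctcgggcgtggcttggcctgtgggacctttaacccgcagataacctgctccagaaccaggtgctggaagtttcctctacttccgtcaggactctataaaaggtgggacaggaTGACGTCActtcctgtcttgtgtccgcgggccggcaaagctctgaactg

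Mrpl17 encodes a large-subunit protein of a bacterial family. Its peak had the highest fold of any gene-end peak in the group and ranked 322 of all 27050 peaks. The peak spanned chr7:105810953-105811453, and its summit lay 184 bp upstream of the start, at base 67 of the printed stretch. The sequence there holds 1 ETS and 2 NRF1 matches, the second of them close to the start. Mrpl39, a large-subunit protein without a bacterial counterpart, had its 13.0-fold summit 39 bp upstream of the start. Its NRF1 match reads the same on both strands and is marked once.

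The 12.4-fold summit of Mrpl1 lay 18 bp upstream of the listed start, and none of these 4 motifs was found in the window. Mrpl1 is the mitochondrial counterpart of the protein that forms the L1 stalk of bacterial ribosomes. Mrps18c (small subunit, 11.1-fold) and Mrps27, a small-subunit RNA-binding protein of the pentatricopeptide repeat type (10.6-fold), each had 1 ETS match upstream of the start. Mrps27 had a YY1 match as well, just after the start and outside the printed stretch. Mrpl16 (10.2-fold), whose bacterial relative sits near the peptidyl transferase centre, had 1 CRE match. In these 6 promoters the summit lay between 18 and 184 bp upstream of the start. They were chosen for a summit in the printed stretch, so a position near the start was fixed by that choice.

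**Figure D1:**
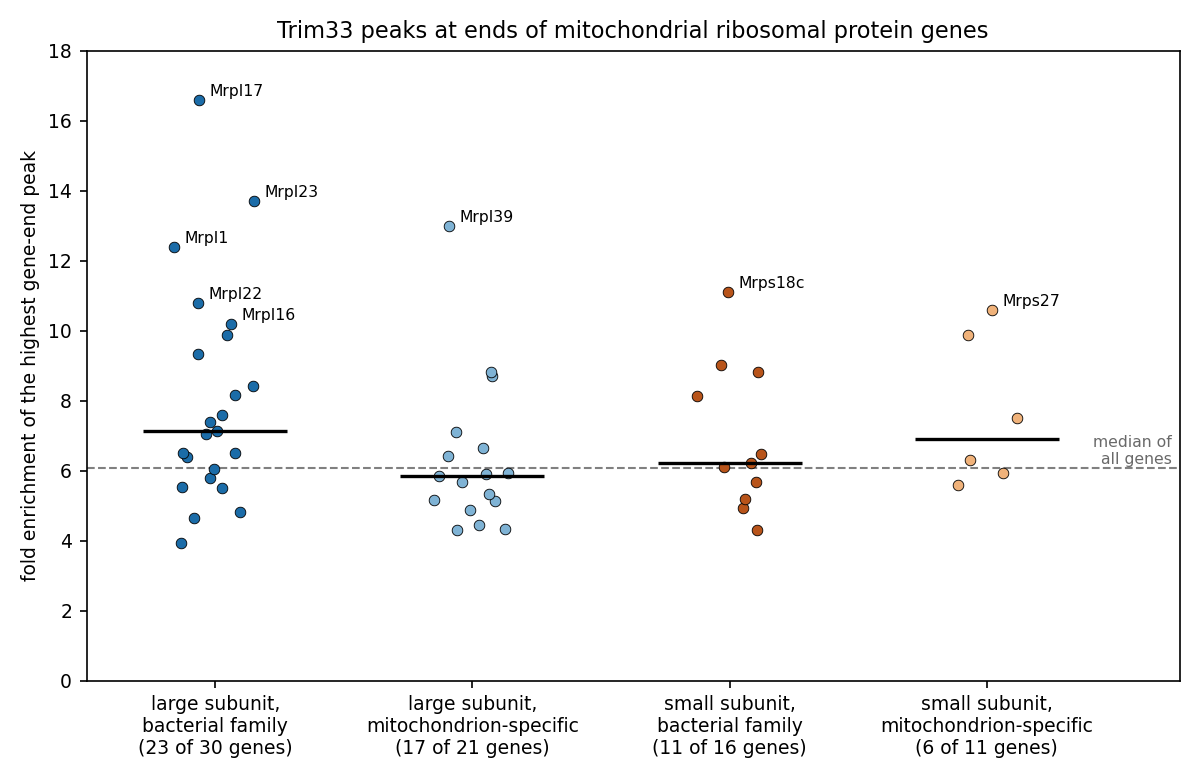
Fold enrichment (linear axis) of the highest Trim33 peak within 1000 bp of a gene end, 1 point per gene, by subunit and protein family, with black bars for the median of each class and a dashed line for the median of all protein-coding genes with such a peak (6.07-fold). The class medians lie between 5.86 and 7.14, and the genes at 10-fold or more are named.

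Peaks of 10-fold or more at a gene end were found for 8 of the 78 genes (10.3%), against 3.42% of all protein-coding genes. Among only those genes with a gene-end peak, it was 8 of 57, against 748 of 7306. Of all 27050 peaks, 2993 (11.1%) reached that level. The 8 genes were Mrpl17, Mrpl23, Mrpl39, Mrpl1, Mrps18c, Mrpl22, Mrps27 and Mrpl16. Mrps33 (9.89-fold), Mrpl30 (9.88-fold), Mrpl20 (9.34-fold) and Mrps28 (9.01-fold) completed the 12 highest. Of these 12 genes, 8 encode large-subunit proteins and 9 belong to bacterial families. Of all 78 genes these were 51 and 46, so the 2 counts are not read as a difference. At the other end, 9 of 57 genes (15.8%) had a highest gene-end peak under 5-fold, with the lowest at Mrpl9 (3.92-fold). Over all protein-coding genes with a gene-end peak, the lower quartile was 4.87-fold. Over the whole list, peaks ran from 1.91-fold to 54.6-fold with a median of 6.00.

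Genes of both subunits had Trim33 peaks. Of the large-subunit genes, 40 of 51 (78.4%) had a gene-end summit, and of the small-subunit genes 17 of 27 (63.0%), against 33.4% of all protein-coding genes. Their median folds were 6.47 (range 3.92 to 16.6) and 6.30 (range 4.31 to 11.1). By protein family, 34 of 46 genes of bacterial families (73.9%, median 6.78-fold) and 23 of 32 mitochondrion-specific genes (71.9%, median 5.92-fold) had one. The lowest share was that of the mitochondrion-specific small-subunit genes, 6 of 11 (54.5%), and the highest that of the mitochondrion-specific large-subunit genes, 17 of 21 (81.0%). The 11 genes include Mrps36, which had no gene-end summit. The ranges of fold overlapped between all these classes.

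Some large-subunit proteins lie around the tunnel through which the nascent chain leaves, and those named here were chosen after their values were seen. Mrpl23 had a 13.7-fold summit 79 bp downstream of its start, and Mrpl22 a 10.8-fold summit that lay at the far end of the gene. Mrpl17, described above, and Mrpl47 (7.59-fold) belong to the same neighbourhood in the ribosome. Mrpl45, which holds the ribosome at the inner membrane, had 6.65-fold enrichment 16 bp downstream of its start. Mrpl4, Mrpl24 and Mrpl32 had no gene-end summit, and the only summit in the Mrpl24 locus (6.62-fold) lay 118 bp from an end of Isg20l2.

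Of the large-subunit proteins around the stalk that recruits translation factors, some are described here, chosen after their values were seen. Mrpl12 is the stalk protein itself and is also known to bind the mitochondrial RNA polymerase. Its summit had 7.14-fold enrichment and lay 9 bp upstream of the start. Mrpl10, the base of the stalk, had 7.04-fold at 81 bp upstream, and Mrpl11, next to it on the ribosome, had 4.64-fold at 272 bp upstream. Mrpl53 and Mrpl54, proteins of mitochondria placed in the same region, had no gene-end summit. Mrpl2 and Mrpl3, counterparts of bacterial proteins of the catalytic core, had 4.81-fold at 1 bp upstream and 5.53-fold at 20 bp upstream. The summit of Mrpl2 was also 47 bp from an end of Klc4. Mrpl27, another protein near the catalytic core, had no summit in its locus. Mrpl58, a peptidyl-tRNA hydrolase that became part of the ribosome, had 2 gene-end summits, 5.34-fold at 39 bp upstream of the start and 3.50-fold at 122 bp from the other end.

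Of the small-subunit genes, Mrps18c, Mrps27 and Mrps33 had the highest gene-end folds. Mrps33 had its 9.89-fold summit 55 bp upstream of the start and no other summit in its locus. Mrps28 had 9.01-fold at 27 bp from its upper end. Mrps16 reached 8.81-fold at 97 bp upstream of a start, and Mrps10 8.14-fold at 313 bp upstream of its listed start. Mrps12, a protein of the decoding centre in bacteria, had no gene-end summit, only a flank summit of 5.42-fold at 6731 bp from the gene.

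Starts were known for 69 of the 78 genes. Of these, 53 (76.8%) had a summit within 1000 bp of a listed start, against 34.8% of the 17492 protein-coding genes with a listed start. In the narrower window from 250 bp before to 50 bp after the start, 41 of 69 (59.4%) had one, against 25.5%. Among genes with a gene-end summit, the highest such summit lay within 100 bp of a listed start in 35 of 52 genes (67.3%), against 3006 of 5889 protein-coding genes (51.0%, the 52 included). The median distance was 56 bp, against 97 bp. The summit was upstream of the start in 36 of 52 (69.2%), against 65.3%.

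**Figure D2:**
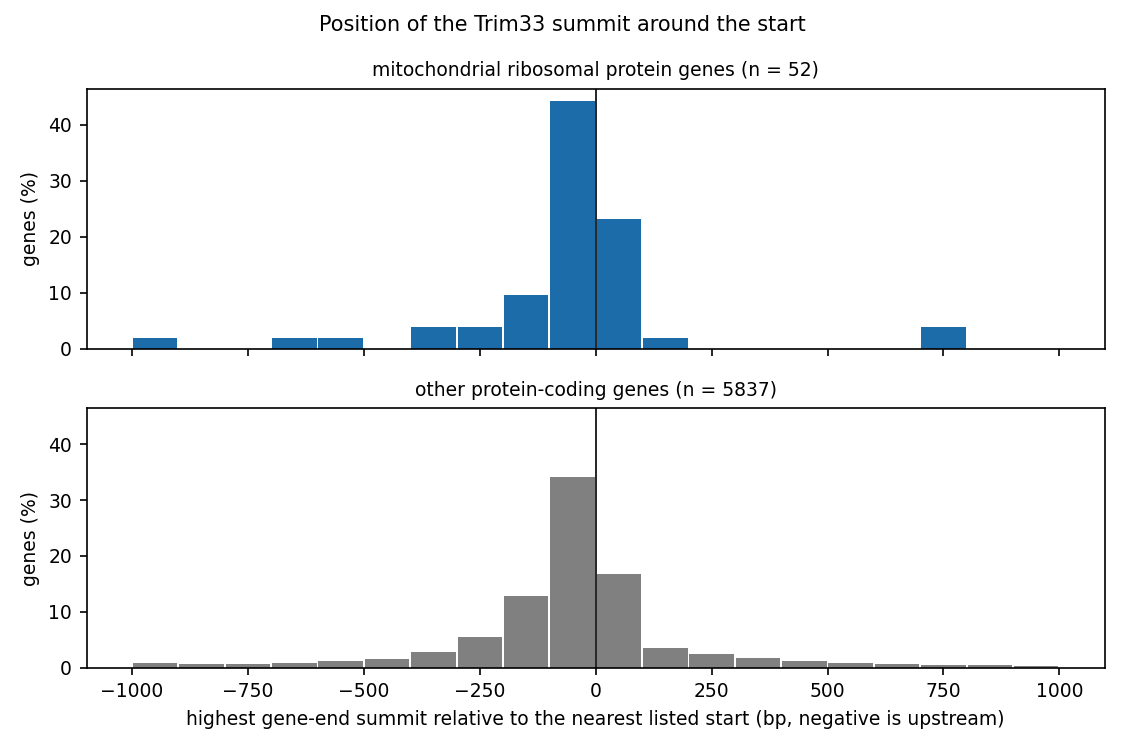
Position of the highest gene-end summit relative to the nearest listed start (x axis, bp, bins of 100 bp) as a percentage of genes with a listed start and a gene-end summit (y axis), for 52 mitochondrial ribosomal protein genes (upper panel) and 5837 other protein-coding genes (lower panel). Summits beyond 1000 bp are counted in the total and not drawn; the 100 bp just upstream of the start hold 44.2% and 34.1%.

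A few genes departed from this pattern. Mrpl22 was the clearest, since its 10.8-fold summit lay 272 bp beyond its upper end and 8188 bp downstream of its start. The other summit of its locus (5.92-fold) was 65 bp from an end of Gemin5. Mrpl20 had its 9.34-fold summit 707 bp downstream of the start. For Mrpl36 the summit (6.51-fold) was 145 bp from the lower end of the gene span but 2361 bp upstream of the listed start. The highest gene-end summits of Mrpl41 (919 bp upstream), Mrps18b (607 bp upstream), Mrpl40 (564 bp upstream) and Mrps6 (778 bp downstream) also lay farther than 500 bp from a listed start.

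The gene spans used for counting include the longest annotated transcripts, so that a listed start can lie inside the span. In 3 genes without a gene-end summit, a summit did lie at a listed start. Mrps23 had a 9.81-fold peak 73 bp upstream of its start, at chr11:88204135-88204467, and Mrps2 an 8.32-fold peak 39 bp upstream, at chr2:28467931-28468177. Mrpl18, whose bacterial relative binds 5S ribosomal RNA, had 5.54-fold at 266 bp upstream, and this summit was 28 bp from an end of the neighbouring gene Tcp1. With these, 60 of 78 genes (76.9%) had a summit at a gene end or a listed start, against 36.2% of all protein-coding genes.

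Near the limit of 1000 bp, the summits just inside were those of Mrpl41 and Mrps31. The Mrpl41 summit (5.14-fold) lay 919 bp outside the gene and 27 bp from an end of Pnpla7. The Mrps31 summit (7.51-fold) lay inside the gene span, 913 bp from its lower end and 22 bp from its listed start. Just outside the limit lay the nearest summits of Mrpl18 (1430 bp), Mrpl4 (1619 bp) and Mrps2 (2076 bp). Mrpl4 had 2 summits inside the gene, of 6.71-fold and 3.35-fold.

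**Figure D3:**
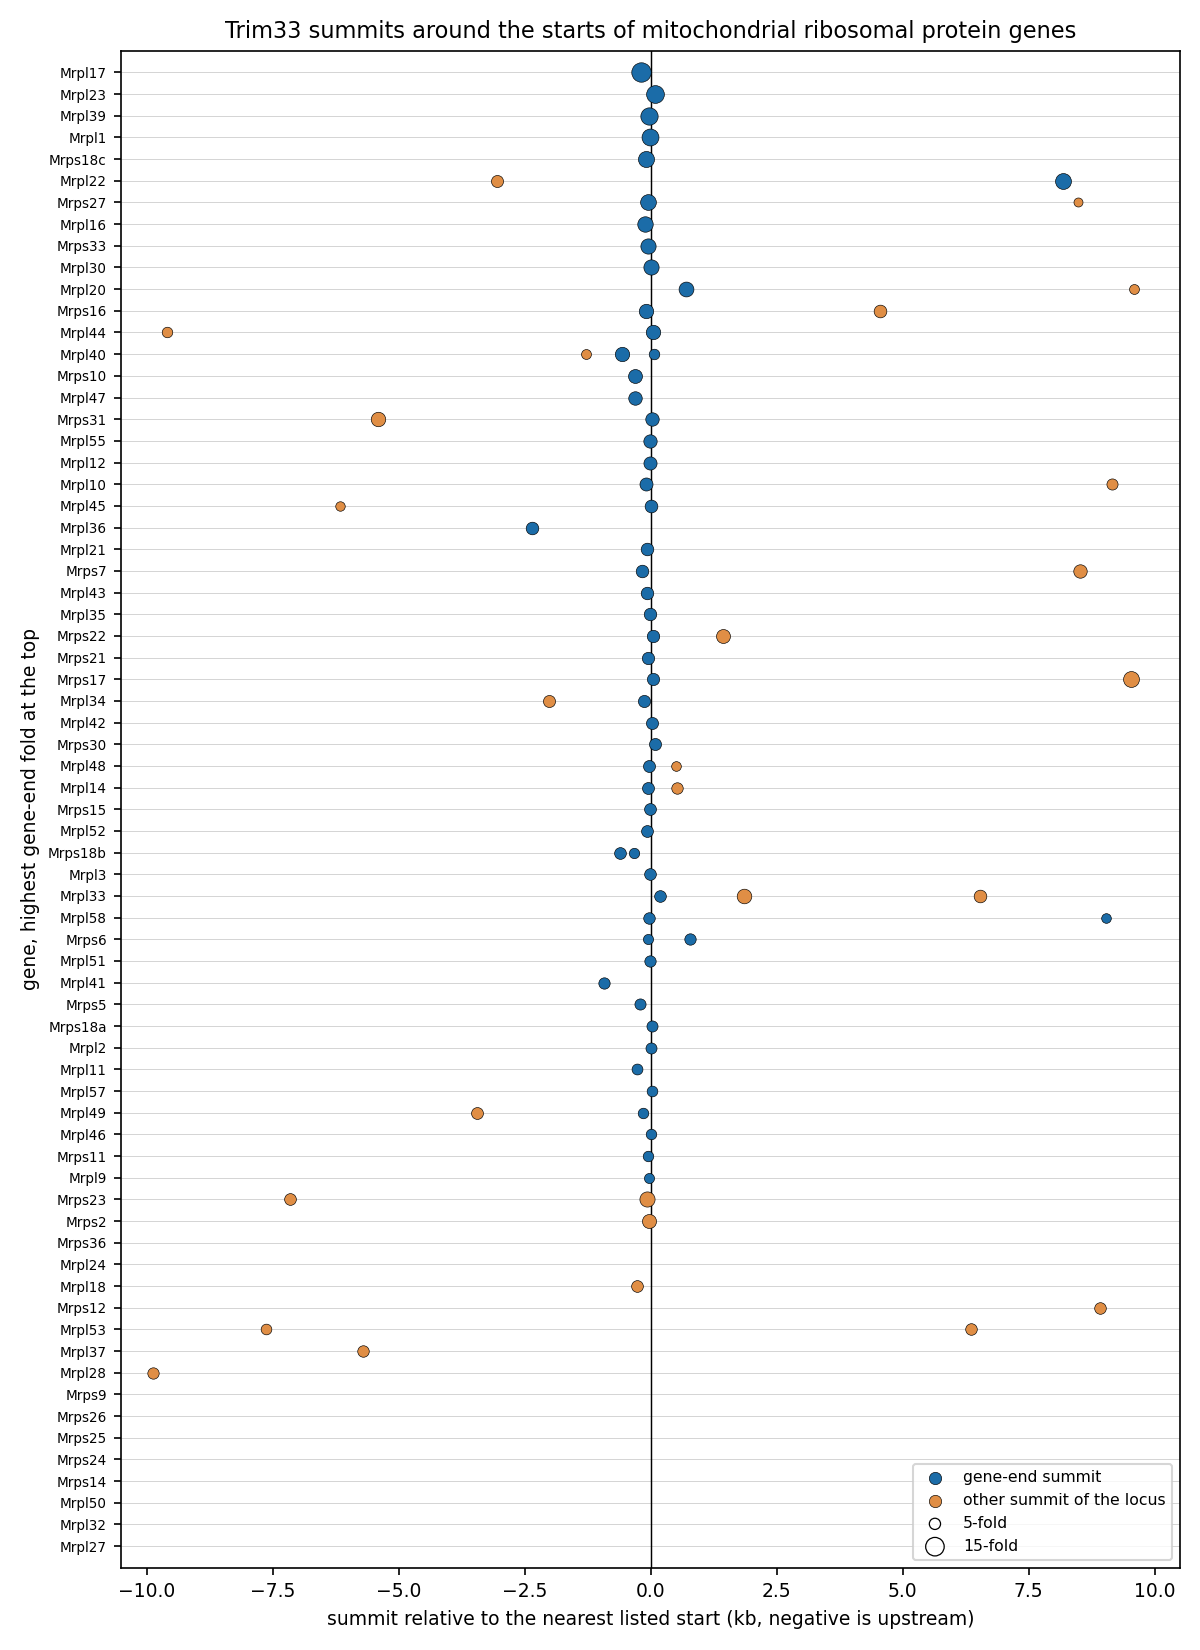
Each Trim33 summit of the locus (points, area rising with fold enrichment) relative to the nearest listed start (x axis, kb) for the 69 mitochondrial ribosomal protein genes with a listed start (rows, highest gene-end fold at the top); summits farther than 10 kb from the start are not drawn. Blue marks gene-end summits and orange other summits of the locus; the 3 orange points at the line of the start without a blue one are Mrps23, Mrps2 and Mrpl18.

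Most loci held 1 or 2 summits. The number of summits per locus was not counted over all protein-coding genes, so it is not read as a trait of this group. Of the 78 loci, 37 had 1 summit, 23 had 2, 5 had 3 and 2 had 4, while 11 had none. The loci together held 105 different peaks, 1 of them counted for both Mrpl46 and Mrps11. The loci with 4 summits were those of Mrps27 and Mrpl49. In Mrps27, a gene of 70796 bp, 3 further summits lay inside the body, the highest at 12.2-fold. In Mrpl49, the gene-end peak had 4.33-fold enrichment, and the other summits (3.08 to 6.30-fold) lay in the flanks, nearest to the genes Syvn1 and Znhit2.

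The highest peak of any of these loci was not at a gene end. It lay inside Mrpl1 at chr5:96222993-96223290, 13034 bp downstream of the start, with 18.1-fold enrichment (rank 217). In Mrps17, the highest peak of the locus (10.8-fold) was 17 bp from an end of Nipsnap2, and the peak at Mrps17 itself had 6.11-fold. Mrps28, the longest gene of the group at 121712 bp, had a 9.45-fold summit 43763 bp inside it.

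Summits farther than 1000 bp from any protein-coding gene's end are called distal. They were found in the loci of 21 of the 78 genes (26.9%), against 31.4% of all protein-coding genes, a share near the background. Those counted as distal include the peaks at the listed starts of Mrps2 and Mrps23. These genes are short, with a median body of 7690 bp, against 17169 bp for all protein-coding genes. Between the quartiles of their own lengths (4000 and 12547 bp), 34 of 38 had a locus summit (89.5%), against 51.1% of the 4952 protein-coding genes of those lengths.

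Neighbouring genes shared many of the peaks. An end of another gene lay within 1000 bp of an end of 44 of the 78 genes (56.4%), against 24.8% of all protein-coding genes. Among these crowded genes 31 of 44 (70.5%) had a gene-end summit, against 51.2% of all such genes. Among genes with no such neighbour 26 of 34 (76.5%) had one, against 27.5%. Of the 57 highest gene-end peaks, 27 also had an end of another gene within 1000 bp, and 14 were nearer to the other gene than to the mitochondrial ribosomal protein gene. Which of the genes such a peak belongs to cannot be told from its position. No share over all protein-coding genes is given for the counts of 27 and 14, so they are not read as a trait of this group.

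Both strands were known for 24 of the 27 pairs of a gene and its neighbour at the summit. In 20 genes that neighbour lay head to head, the pair being transcribed away from each other. Mrpl46 and Mrps11 each count here as the other's neighbour. No share over all protein-coding genes is given for head-to-head pairs, so the count is not read as a trait of this group. Mrpl46 and Mrps11, of the large and the small subunit, are 41 bp apart on chromosome 7 and shared 1 peak of 4.31-fold at chr7:78782998-78783153. The partners had various known roles, and those named were chosen after their values were seen. Some are mitochondrial. Mrpl47 shared its 7.59-fold peak with Ndufb5 and Mrpl36 its 6.51-fold peak with Ndufs6, both genes for subunits of respiratory complex I. Mrpl43 lies head to head with Twnk, the helicase of mitochondrial DNA, and the summit (6.43-fold) was 78 bp from the start of Mrpl43 and 38 bp from that of Twnk. Mrps27 shared its peak with Ptcd2, which is involved in mitochondrial RNA processing.

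Others included Klc4, a kinesin light chain gene, with Mrpl2, Rab6a, a gene of vesicle transport, with Mrpl48, and the DNA helicase gene Helq with Mrps18c (11.1-fold). Mitd1 lay head to head with Mrpl30 (9.88-fold). Fau, which encodes a precursor of a cytosolic ribosomal protein, was 191 bp from Mrpl49. Mrpl40 lay 112 bp from the histone chaperone gene Hira and had 2 gene-end summits, 8.71-fold nearer to Hira and 4.34-fold at 65 bp from its own end. Mrps18b also had 2 (5.59-fold and 4.16-fold), both nearer to Ppp1r10. The gene-end summits of Mrps6 had 5.18-fold and 3.98-fold enrichment, the lower one at 44 bp upstream of the start. That lower summit was 30 bp from an end of the overlapping gene Slc5a3, and the higher one was 792 bp from such an end.

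No summit was found in the loci of 11 genes: Mrpl19, Mrpl27, Mrpl32, Mrpl50, Mrpl54, Mrps9, Mrps14, Mrps24, Mrps25, Mrps26 and Mrps34. Their nearest summits were 11854 bp (Mrps14) to 777339 bp (Mrpl50) from a gene end, with a median of 21180 bp. A further 10 genes had a locus summit and no gene-end summit, namely Mrpl4, Mrpl18, Mrpl24, Mrpl28, Mrpl37, Mrpl53, Mrps2, Mrps12, Mrps23 and Mrps36. For Mrpl18, Mrpl24, Mrpl28, Mrpl53 and Mrps36 each of those summits lay at an end of another gene, for example 34 bp from Mogs for Mrpl53 and 33 bp from Cdk7 for Mrps36. A gene without a peak in this list is one where the merged libraries did not pass the authors' calling, and a weaker signal there cannot be seen in these data.

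The genes lay on 17 chromosomes, none of them X. Chromosome 11 held 11 of the genes, 8 of them with a gene-end summit, and chromosome 17 held 8, of which 5 had one. No share over all protein-coding genes is given for single chromosomes, so these counts are not read as a trait of this group. With symbols of the Olfr, Vmn, Gm and Rik series left out, which are largely receptor genes and predicted genes, 38.1% of protein-coding genes had a gene-end summit.

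Other housekeeping groups also had peaks at most of their genes. At gene ends the 73.1% compare with 65.5% of 84 cytosolic ribosomal protein genes, 61.4% of 88 oxidative phosphorylation subunit genes and 60.0% of 40 proteasome subunit genes. Over loci the 85.9% compare with 85.7%, 80.7% and 80.0%. The median fold of the highest gene-end peak was 6.43, against 5.92, 5.99 and 6.72. No test between these lists was made, and the shares of 60.0% to 73.1% are not read as a difference. Of the 3 other groups, the cytosolic ribosomal and respiratory genes had 4 and 3 members on X, and the proteasome genes 1.

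**Figure D4:**
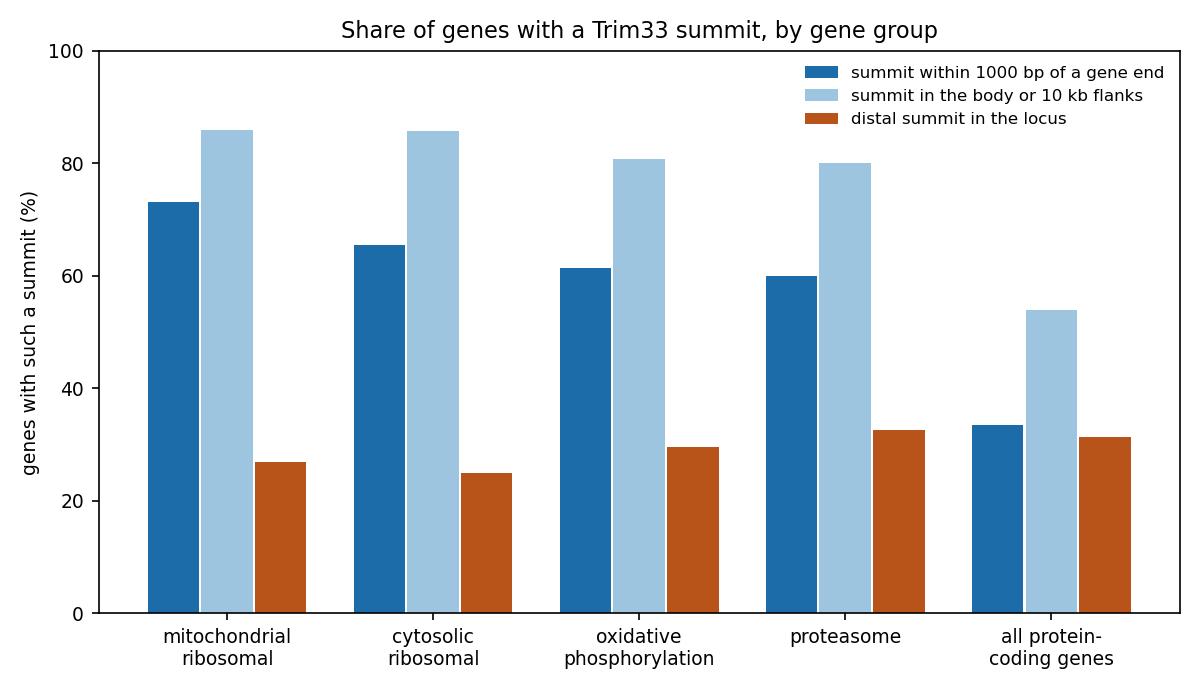
Percentage of genes (y axis, from 0) with a Trim33 summit within 1000 bp of a gene end, in the body or 10 kb flanks, or distal to all gene ends, for 78 mitochondrial ribosomal, 84 cytosolic ribosomal, 88 oxidative phosphorylation and 40 proteasome genes and all 21887 protein-coding genes. Gene-end shares of the 4 groups lie between 60.0% and 73.1%, against 33.4% of all protein-coding genes, while distal shares reach at most 32.5%, against 31.4%.

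The rest of the machinery of mitochondrial gene expression also had Trim33 peaks. Over 5 lists with 67 genes, 45 (67.2%) had a gene-end summit, against 33.4% of all protein-coding genes, and 60 had a locus summit, against 53.9%. Of mitoribosomal proteins with other symbols 4 of 5 had a gene-end summit, the highest at Aurkaip1 (7.80-fold) and Gadd45gip1 (5.63-fold). Of mitochondrial translation factors 8 of 14 had one, with Taco1, an activator of cytochrome oxidase subunit translation, at 10.6-fold and the release factor gene Mtrf1l at 10.3-fold. Mitochondrial tRNA synthetases had 12 of 17, led by Nars2 (11.5-fold) and Hars2 (9.24-fold). Ribosome assembly and rRNA modification genes had 16 of 22, led by Mterf4 (7.63-fold) and Mrm1 (7.54-fold). For mitochondrial transcription and RNA stability the count was 5 of 9, led by Lrpprc (10.8-fold), which stabilises mitochondrial messenger RNAs, and the transcription factor gene Tfb2m (8.94-fold). Tfam, which packages mitochondrial DNA, reached 8.74-fold, while Polrmt, the mitochondrial RNA polymerase, had no summit in its locus.

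Promoter windows were searched for motifs of factors known from housekeeping and T cell promoters. In the 300 bases from 250 before to 50 after the first listed start, an ETS match was found in 25 of 69 windows (36.2%), against 21.6% of the 5889 windows of genes with a gene-end summit and 11.9% of all 17492. The 69 windows include 17 of genes without a gene-end summit, so in this paragraph only the second background is a like set. An NRF1 match was found in 18 (26.1%), against 16.1% and 8.95%, and a YY1 match in 8 (11.6%), against 3.40% and 1.94%. GC boxes (GGGCGG) were found in 49.3%, against 69.7% and 46.3%. CCAAT boxes (CCAAT) were found in 39.1%, against 35.5% and 39.0%. The CRE was found in 2 of 69 (2.90%), against 3.91% and 2.34%. The AP-1 motif TGANTCA was found in 3 of 69 (4.35%), against 4.79% and 7.08%. The windows held a median of 21.0 CpG dinucleotides, against 23.0 and 13.0.

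The windows can also be divided by whether the gene had a gene-end summit. ETS matches were in 19 of 52 windows of genes with a summit (36.5%) and in 6 of 17 of those without (35.3%). Over all protein-coding genes the ETS shares were 21.6% with a gene-end summit and 6.99% without. NRF1 matches were in 15 of 52 (28.8%) and 3 of 17 (17.6%), against 16.1% and 5.30% over all protein-coding genes. CCAAT boxes were in 16 of 52 (30.8%) and 11 of 17 (64.7%), while over all protein-coding genes the shares were 35.5% with a gene-end summit and 40.8% without. With 17 genes in the smaller set, these shares are a description. A match to such letters does not show that a factor was bound.

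**Figure D5:**
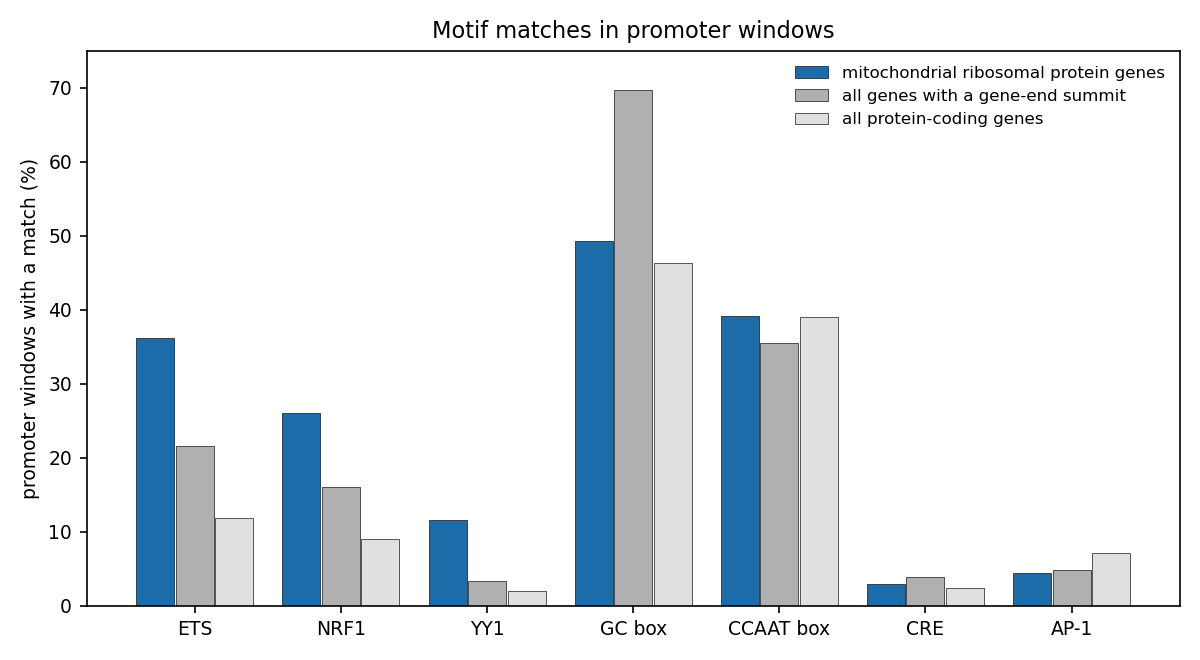
Percentage of 300-base promoter windows (y axis, from 0) with at least 1 match on either strand to each of 7 motifs (x axis), for 69 mitochondrial ribosomal protein genes, 5889 protein-coding genes with a gene-end summit and all 17492 protein-coding genes with a listed start. ETS, NRF1 and YY1 matches are most frequent in the mitochondrial ribosomal windows (36.2%, 26.1% and 11.6%), and GC boxes in those of genes with a gene-end summit (69.7%).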

How the data were processed

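The deposited peak list holds, for each peak, a fold enrichment at the summit (a ratio over background), the −log10 of the q-value and a score. In every peak the authors' score was 10 times that −log10 q, cut to a whole number. Start, end and summit position are other columns of the deposited file. Per the submitters' processing notes, MACS2 (2.1.1.20160309), Bowtie (1.2.1.1), Trim Galore (0.3.7) and build mm10 were used. The calling settings, control, threshold and depth are not stated by the labels or the file. Replicates were merged into 1 list, so a peak may rest on 1 library.

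Genes were taken from RefSeq (GRCm38.p6), with starts and strand for 69 of the 78 genes from its promoter table. Coordinates count from 1. Counting used Python 3.11.15, pandas 2.3.3 and NumPy 2.4.6 and was tested on planted summits. The background is every protein-coding gene, the group included. Since genes and peaks are not replicates, no p-value is given. Genes were named by rule: the 12 highest gene-end folds, genes with 2 gene-end or 4 locus summits, the 5 highest other locus peaks, genes without a locus summit, genes near the window limit and the 2 highest of each pathway list. Other genes were named after their values were seen. Members and lists were chosen with earlier results of these data known. Mtrfr was not matched by symbol. Alternatives were other windows, flanks and stricter peak sets; listed starts beside gene ends and the backgrounds by length and by crowding were chosen after seeing the data.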

Additional observations from a re-analysis of the deposited data

How the results depend on the processing

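Values that moved by over 1.5 times, or for the median fold out of its 95% binomial interval (5.90 to 7.40), were these. With a window of 100 bp, 36 of the 78 genes had a gene-end summit (23 of the large subunit), against 18% of all protein-coding genes. With peaks at or above the median fold it was 34 (23 large, 11 small), against 17.2%, and the median fold was 8.15, against 7.75, by construction. With peaks at or above the median −log10 q the large subunit had 26, against 17.6% of all protein-coding genes. The median fold was then 7.55 in the group, against 7.70 over all protein-coding genes, so the order of the main medians (6.43 against 6.07) turned. By locus, 31 genes had a summit in the body alone, against 33.0% of all protein-coding genes, 41 had one at or above the median fold, against 35.8%, and 21 had a distal one. The share in the body alone is near the background of all lengths, but these genes are short (median 7690 bp, against 17169 bp). No background of like length was counted for the body alone. With the Olfr, Vmn, Gm and Rik series left out the background at gene ends was 38.1% in place of 33.4%, a shift under 1.5 times but beyond its counting interval. The cause of these shifts was not tested. The other 21 values stayed within their limits. Among them were 44 genes (against 29.6% of all protein-coding genes) when the nearest gene end had to be that of the member. With a window of 500 bp there were 49 (against 29.8%), and with 2500 bp 60 (against 38.5%). No paired analysis was possible because both Trim33 libraries went into 1 merged list; for the same reason no replicate could be left out. The depth of the libraries is unknown, so absence from the list is not absence of binding.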
